A study of Mus musculus with 24 samples.

Results

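Hearts reperfused for 1 h after 45 min of ischemia were compared with hearts of sham-operated animals. The comparison rested on 6 of the 24 libraries of the series, 3 with the treatment label of 1 h of reperfusion and 3 with that of sham surgery, and the members were chosen by those labels alone. All animals were C57BL/6 mice, an inbred laboratory strain, the sampled tissue was labelled heart, and no genetic change or drug was named for either group. The sources used here give neither the age and sex of the mice nor the vessel that was closed and the region of the heart that was sampled. In the sham group the labels name surgery without ischemia. Whether replicates were different mice is left unstated in the labels, so p-values measure the spread between libraries of a group, which may in part be technical. That spread was estimated over all 24 libraries of the series.

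Ischemia stops the blood supply of heart muscle and reperfusion restores it, and the return of oxygen brings a burst of oxidants, calcium overload and a sterile inflammatory response. Cells that receive such a stimulus first transcribe immediate early genes, which need no newly made protein for their induction and encode transcription factors such as AP-1 and Egr1, together with short-lived messengers for cytokines, chaperones and the inhibitors that end the signal. The second wave, in which blood neutrophils and then monocytes enter the tissue, follows later. The title of the series names Atf3, a stress-induced transcription factor, and ferroptosis, a form of cell death driven by iron and oxidised lipids.

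Reads counted in genes numbered 13407465 to 15870974 in the sham libraries and 15018159 to 15834179 in those of 1 h. Levels are given in CPM (counts per 1000000 counts of the scaled library), in the order of replicates 1, 2 and 3. A count of 3, taken as the detection limit, came to between 0.189 and 0.224 per 1000000 counts of the library totals before scaling. The scaling factors of the 6 libraries ran from 0.907 to 1.06, and on the CPM scale used here the limit differs by that factor. Changes are log2 fold changes of 1 h over sham with their standard error, n was 3 in both groups, and genes with an adjusted p (Benjamini-Hochberg) below 0.05 were counted as called. Replicate 1 of 1 h stood apart from the other libraries of its group: its counts differed from theirs by a chi-square of 56.5 and 41.5 per degree of freedom, against 8.89 between replicates 2 and 3 and 7.28 to 11.9 within sham. The deviation went with gene length. Among genes of the shortest quintile (57 to 2286 bases) replicate 1 lay above the mean of replicates 2 and 3 by a median of 0.41 on the log2 scale, and among those of the longest quintile (7160 to 116825 bases) below it, at -0.29. Replicates 2 and 3 differed by at most 0.01 in any quintile. Between 1 h and sham the median went from 0.27 in the shortest quintile to -0.19 in the longest, from 0.12 to -0.09 without replicate 1, and lay between -0.01 and 0.03 once a smooth trend over length was taken out of every library. The mitochondrial genome held 28.9%, 31.0% and 33.2% of the counts in sham and 28.7%, 21.1% and 24.5% at 1 h, a difference that an exact two-sided permutation test gave p = 0.1, the smallest that 3 against 3 libraries allow. In bulk tissue fewer cells of a type and less RNA per cell cannot be told apart, and this holds for all levels below. Ventricular cardiomyocyte markers summed to 63260 to 66580 CPM in sham and 63610 to 65370 CPM at 1 h. Markers of lung epithelium summed to less than 1 CPM in each of these 6 libraries.

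**Figure D1:**
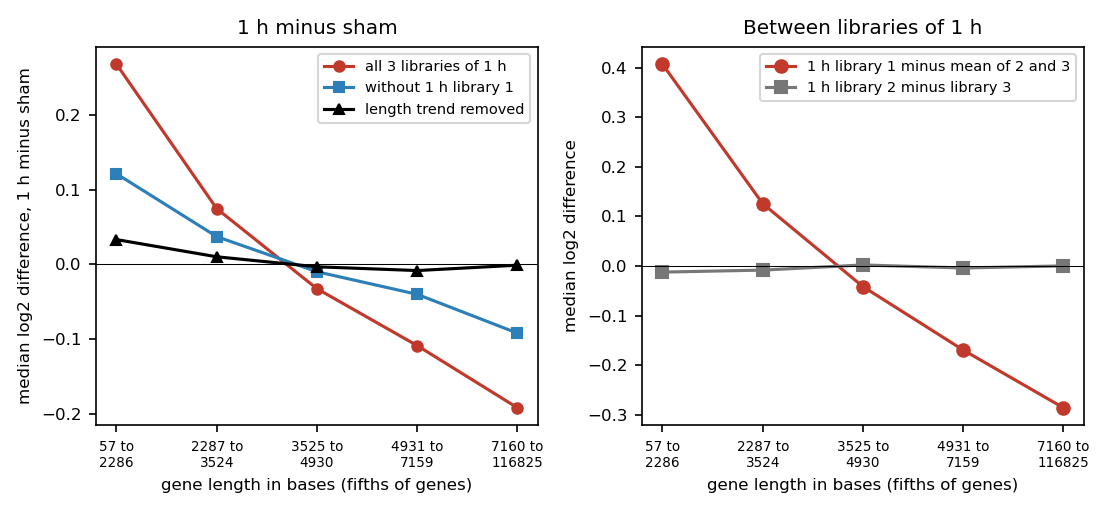
Median log2 difference over genes with a mean of at least 5 CPM, in quintiles of gene length in bases; the left panel shows 1 h minus sham with all 3 libraries of 1 h, without replicate 1 and with a length trend removed, and the right panel the differences among libraries of 1 h. Replicate 1 falls from 0.41 to -0.29 across the quintiles, while replicate 2 minus replicate 3 stays beside 0.

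Of 15128 tested genes, 1129 (7.46%) were higher and 516 (3.41%) lower at 1 h than in sham, in total 10.9%, and the median log2 fold change over all tested genes was -0.01. At least 2-fold differences were called upward for 397 genes (2.62%) and downward for 128 (0.846%). The 3 libraries of each group did not overlap in 2557 genes with higher values at 1 h (16.9%) and in 2460 with lower values (16.3%). The number of called genes was 559 without 1 h replicate 1, 751, 867 and 942 without sham replicates 1, 2 and 3, and 1071 with the length trend removed. With library totals as the only scaling, 1162 were higher and 261 lower, so that 81.7% of calls were higher against 68.6%. By length, 515 called genes were higher and 21 lower in the shortest quintile, and 20 and 154 in the longest, while with the length trend removed the numbers were 206 and 62 in the shortest and 54 and 27 in the longest. For this reason every gene described below as having risen or fallen kept its call when each of the 6 libraries was left out in turn and with the length trend removed, unless the exception is stated beside it. Of the 157 called genes that the naming rule took, 100 kept the call in each of those 6 leave-outs. The lists of genes used below were written with earlier results of these data known, and a list is described by its counts and its median against the shares just given.

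**Figure D2:**
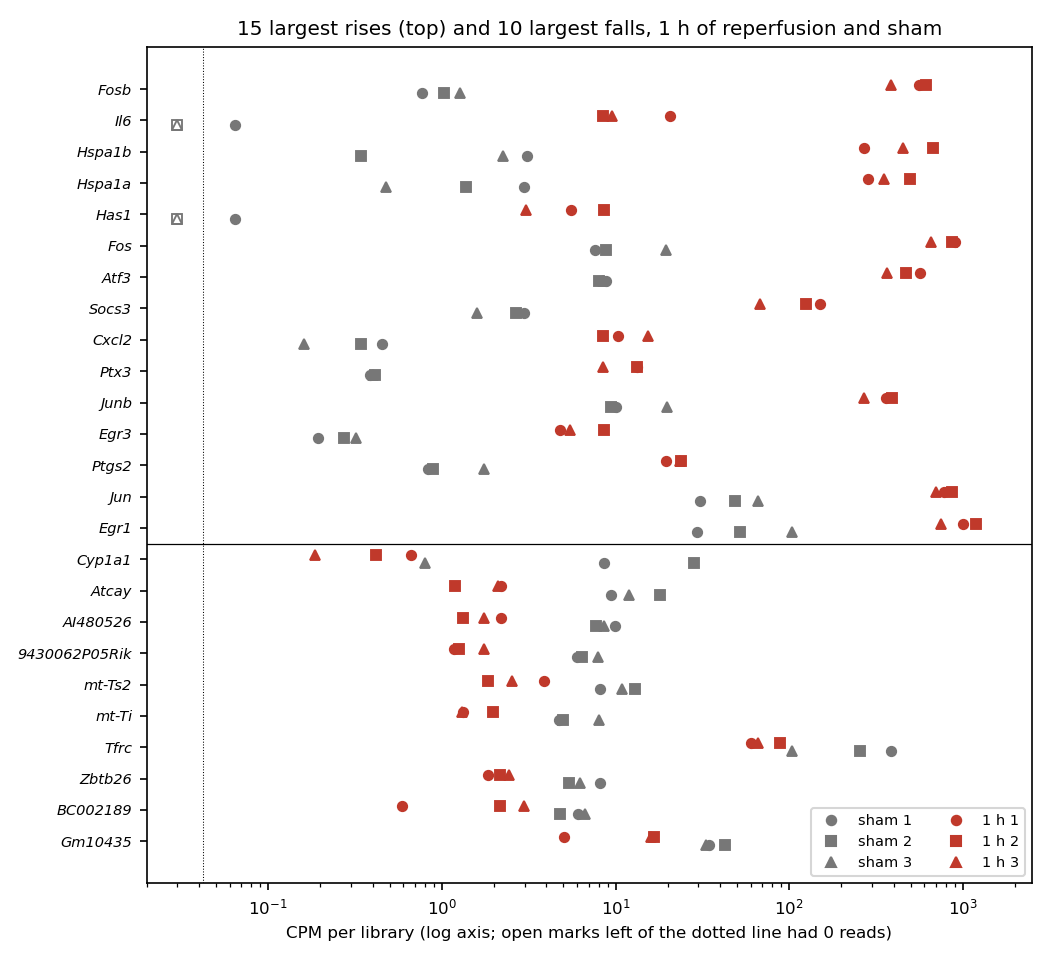
CPM per library (log axis) of the 15 genes with the largest rises and the 10 with the largest falls, grey for sham and red for 1 h, with a mark shape for each replicate. The groups do not overlap in any row by the naming rule, Fosb and Fos separate by more than an order of magnitude, and Cyp1a1 and Tfrc spread widely within sham.

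Subunits of AP-1, the dimeric transcription factor that pairs a Fos with a Jun protein, held 6 of 7 tested members that rose, and 0 fell, with a median of 4.01. Fos, a partner that binds DNA only as a dimer with a Jun protein, lies at chr12:85473890-85477273 (GRCm38, GENCODE annotation, as all gene positions here) and stood at 7.64, 8.77 and 19.5 CPM in sham and 897, 865 and 651 CPM at 1 h (log2 fold change 6.08 ± 0.51, adjusted p = 2.06e-07). Its close relative Fosb stood at 0.770, 1.03 and 1.28 CPM in sham and 557, 609.7 and 386 CPM at 1 h (log2 fold change 8.99 ± 0.85, adjusted p = 5.16e-07). For both genes replicate 3 was the lowest library of 1 h, and it still lay far above every sham library. Among the Jun partners, Jun went from 30.8, 49.0 and 65.9 CPM to 779, 869 and 702 CPM (log2 fold change 4.01 ± 0.38, adjusted p = 5.77e-07). Junb went from 10.1, 9.38 and 19.9 CPM to 360.3, 389 and 269 CPM (log2 fold change 4.70 ± 0.43, adjusted p = 4.85e-07). Jund, which is made in resting tissue too, showed the smaller rise of the Jun genes, from 39.8, 37.7 and 36.5 CPM to 222, 209.6 and 149 CPM (log2 fold change 2.35 ± 0.31, adjusted p = 3.72e-05). Fosl2 rose as well (log2 fold change 2.20 ± 0.33, adjusted p = 0.000151). Fosl1 was not called (1.86, 3.49 and 1.92 CPM against 2.50, 2.93 and 2.36 CPM, log2 fold change 0.10 ± 0.31, adjusted p = 0.879). Per transcript length, on the RPKM scale that the authors deposited, the levels at 1 h were 262 ± 44.2 for Fos, 189.6 ± 32.9 for Jun and 106 ± 27.4 for Fosb (mean ± SD, n = 3). In sham the same scale gave 10.8 ± 3.54 for Jun against 0.194 ± 0.0415 for Fosb. Jun shares bases with the antisense gene Junos, and Junb with Prdx2, and no source used here says whether counting used the strand.

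Among the other immediate early regulators, 17 of 19 tested members rose and 0 fell, with a median of 2.29, and 14 to 16 were called in the 6 leave-outs. Egr1, a zinc finger factor induced by growth factor and mechanical signals, lay at 29.5, 52.1 and 103 CPM in sham and 1002, 1194 and 749.7 CPM at 1 h (log2 fold change 4.0 ± 0.55, adjusted p = 6.60e-05). Sham replicate 3 was its highest sham library and 1 h replicate 3 its lowest treated one, with a wide gap between them. Egr3 (log2 fold change 4.57 ± 0.56, adjusted p = 1.36e-05) and Egr2 (log2 fold change 3.16 ± 0.45, adjusted p = 8.07e-05), relatives of Egr1, rose as well, and Egr3 stood at most at 0.320 CPM in sham. The orphan nuclear receptor Nr4a1 went from 29.2, 47.9 and 77.4 CPM to 499, 566 and 405 CPM (log2 fold change 3.25 ± 0.51, adjusted p = 0.000232). Ier5, a regulator of the heat shock factor Hsf1, went from 10.2, 9.86 and 15.1 CPM to 210.3, 155 and 138 CPM (log2 fold change 3.84 ± 0.39, adjusted p = 1.01e-06). Only 2 tested members were not called. One was Srf, the factor that drives many of these promoters (92.3, 88.2 and 71.7 CPM against 115, 119 and 93.5 CPM, log2 fold change 0.38 ± 0.19, adjusted p = 0.210). The other was Nab1, a corepressor of Egr proteins (37.3, 36.6 and 41.6 CPM against 37.8, 35.5 and 31.6 CPM, log2 fold change -0.14 ± 0.13, adjusted p = 0.520). Of the Kruppel-like factors, zinc finger proteins of endothelium and muscle, 3 of 11 rose, with a median of 0.04. One was the flow-responsive endothelial factor Klf2 (33.6, 41.5 and 47.8 CPM against 238, 281 and 257 CPM, log2 fold change 2.66 ± 0.27, adjusted p = 1.00e-06). The others were Klf4 (log2 fold change 2.02 ± 0.27, adjusted p = 3.72e-05) and Klf6 (log2 fold change 1.51 ± 0.25, adjusted p = 0.000476), and the same number was called in each leave-out. Klf15, a factor of cardiac metabolism, had lower values at 1 h without a call (59.3, 51.8 and 58.0 CPM against 29.4, 37.9 and 44.6 CPM, log2 fold change -0.59 ± 0.25, adjusted p = 0.123).

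The ATF and CREB factors and their targets in the integrated stress response, the pathway in which phosphorylation of a translation initiation factor favours Atf4 protein, split by member. Atf3 (chr1:191170296-191218039) lay at 8.86, 8.08 and 8.47 CPM in sham and 564, 468 and 366 CPM at 1 h (log2 fold change 5.78 ± 0.58, adjusted p = 1.00e-06), and the sham libraries differed by less than 1 CPM. Atf4, the factor that leads the pathway, went from 34.5, 31.6 and 44.4 CPM to 106, 96.3 and 94.5 CPM (log2 fold change 1.43 ± 0.20, adjusted p = 6.67e-05). Ppp1r15a, the phosphatase subunit that reverses the initiation block, went from 13.2, 18.8 and 23.0 CPM to 97.8, 129 and 107 CPM (log2 fold change 2.60 ± 0.31, adjusted p = 8.83e-06). Ddit3, which encodes the death-associated factor CHOP, rose too (log2 fold change 1.08 ± 0.27, adjusted p = 0.0115), but lost the call with sham replicate 2 omitted (adjusted p = 0.0503) and with 1 h replicate 1 omitted (adjusted p = 0.0574). Some targets of Atf4 protein were not called, among them the amino acid synthetase Asns (2.83, 2.67 and 2.88 CPM against 3.75, 2.57 and 2.80 CPM, log2 fold change 0.11 ± 0.32, adjusted p = 0.857). The pseudokinase Trib3 was not called (1.48, 1.51 and 2.40 CPM against 1.47, 2.15 and 2.05 CPM, log2 fold change 0.09 ± 0.39, adjusted p = 0.906). Chac1, a glutathione-degrading enzyme, was higher in each library of 1 h but was not called (7.13, 6.71 and 5.76 CPM against 16.3, 9.80 and 11.6 CPM, log2 fold change 0.93 ± 0.34, adjusted p = 0.0788). Over the list 6 of 19 rose and 1 fell, with a median of 0.11, and 3 to 6 rose in the leave-outs, with 3 when sham replicate 2 or 1 h replicate 1 was omitted. The fall was that of Creb1, the cAMP-responsive factor (log2 fold change -0.57 ± 0.17, adjusted p = 0.0303). It lost the call with sham replicate 2 or 3 omitted (adjusted p = 0.0552 and 0.140) and with 1 h replicate 1 or 2 omitted (adjusted p = 0.0749 and 0.0866) and with the length trend removed (adjusted p = 0.205). Chaperones of the endoplasmic reticulum, the targets of the unfolded protein response, held 0 of 13 members that rose and 0 that fell, with a median of 0.03, and in each leave-out the number was 0 as well. Hspa5, the chaperone that senses unfolded protein there, stood at 588, 499 and 439 CPM and 503, 546 and 482 CPM, and the groups overlapped.

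Among the heat shock chaperones Hspa1a and Hspa1b had the largest fitted rises. Hspa1a and Hspa1b, adjacent genes on chromosome 17 that encode almost the same inducible Hsp70 protein, have nearly identical promoters. These are shown here because both genes were low in sham and hold the same heat shock element. The 250 bases before each start, from RefSeq on GRCm38.p6, are the minus strand of chr17:34972157-34972406 and of chr17:34959239-34959488, and 98.8% of positions were identical. Capitals mark the letters GAANNTTC, the core of the heat shock element, whose reverse complement reads the same, beginning 104 bases before the start in both.

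Hspa1a: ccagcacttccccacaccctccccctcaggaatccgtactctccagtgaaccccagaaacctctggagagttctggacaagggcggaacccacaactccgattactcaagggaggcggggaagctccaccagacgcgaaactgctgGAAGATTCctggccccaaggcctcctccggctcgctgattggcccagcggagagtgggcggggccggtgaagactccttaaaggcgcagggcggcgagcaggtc
Hspa1b: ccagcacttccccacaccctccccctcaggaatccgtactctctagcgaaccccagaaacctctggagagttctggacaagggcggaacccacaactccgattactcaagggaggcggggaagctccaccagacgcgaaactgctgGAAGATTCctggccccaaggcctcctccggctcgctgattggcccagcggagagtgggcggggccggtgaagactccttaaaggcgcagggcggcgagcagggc

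These letters stand in 7.86% of the 32851 promoters of 300 bases (250 before to 50 after the start) in that table. A match is a description of the sequence and not a bound site. Hspa1a stood at 2.95, 1.37 and 0.480 CPM in sham and 285, 496 and 349.8 CPM at 1 h (log2 fold change 7.82 ± 0.88, adjusted p = 4.43e-06). Hspa1b stood at 3.08, 0.343 and 2.24 CPM in sham and 271, 671 and 452 CPM at 1 h (log2 fold change 7.93 ± 0.98, adjusted p = 1.62e-05). In both genes replicate 2 was the highest and replicate 1 the lowest library of 1 h, whereas replicate 1 was the highest in Atf3. Only 68.6% and 72.9% of their reads mapped uniquely, so the split between the copies is uncertain. With multiply mapped reads included the changes were 7.83 and 8.0.

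Some cochaperones that hand clients to Hsp70 rose with it, while Dnajb5 was not called (log2 fold change 0.07, adjusted p = 0.851). Dnajb1, an Hsp40 protein, went from 9.38, 7.4 and 11.8 CPM to 149, 172 and 110.0 CPM (log2 fold change 3.92 ± 0.58, adjusted p = 0.000121). Dnaja1, of the same class, went from 55.4, 47.2 and 51.7 CPM to 144, 165 and 127 CPM (log2 fold change 1.50 ± 0.26, adjusted p = 0.000723). The small heat shock protein Hspb1, abundant in heart, went from 158, 123 and 126 CPM to 707, 566 and 479 CPM (log2 fold change 2.11 ± 0.25, adjusted p = 8.37e-06). Dnajb4, another Hsp40 protein, rose as well (log2 fold change 1.01 ± 0.18, adjusted p = 0.000860). The constitutive relative Hspa8 stood at 1171, 1030 and 1000 CPM in sham and 1272, 1266 and 1250 CPM at 1 h without a call (log2 fold change 0.24 ± 0.18, adjusted p = 0.405). The mitochondrial chaperone Hspd1 was not called either (446, 388 and 412 CPM against 411, 386 and 380.0 CPM, log2 fold change -0.08 ± 0.11, adjusted p = 0.658). Hsf1, the factor that binds heat shock elements, was not called (29.9, 34.7 and 27.7 CPM against 30.9, 30.7 and 31.6 CPM, log2 fold change 0.01 ± 0.14, adjusted p = 0.962). Over the list 8 of 22 rose and 0 fell, with a median of 0.42, and 7 to 9 were called in the leave-outs. Per length, Hspa8 had 184 ± 21.8 RPKM in sham against 0.392 ± 0.316 for Hspa1a, and at 1 h 234 ± 22.1 against 99.5 ± 37.2 RPKM (mean ± SD, n = 3).

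Chemokine and cytokine ligands made up the next group. Cxcl1, Cxcl2 and Il6 are shown with the 250 bases before their starts because all 3 were low in sham and hold the NF-kappaB motif. That motif is the site of the factor that drives many inflammatory genes. The windows are the plus strand of chr5:90890995-90891244, chr5:90903649-90903898 and chr5:30012864-30013113, from RefSeq on GRCm38.p6, with the motif in capitals. In Cxcl1 and Cxcl2 the motif matches on both strands over nearly the same bases.

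Cxcl1: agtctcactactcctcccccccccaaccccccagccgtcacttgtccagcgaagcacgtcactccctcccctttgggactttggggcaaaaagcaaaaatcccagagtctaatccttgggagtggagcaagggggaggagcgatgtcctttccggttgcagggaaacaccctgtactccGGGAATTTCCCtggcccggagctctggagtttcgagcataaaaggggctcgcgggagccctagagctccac
Cxcl2: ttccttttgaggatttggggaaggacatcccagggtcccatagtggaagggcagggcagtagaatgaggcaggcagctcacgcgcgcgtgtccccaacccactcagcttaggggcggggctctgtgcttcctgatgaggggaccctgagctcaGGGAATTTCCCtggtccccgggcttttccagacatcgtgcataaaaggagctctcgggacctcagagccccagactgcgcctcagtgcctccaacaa
Il6: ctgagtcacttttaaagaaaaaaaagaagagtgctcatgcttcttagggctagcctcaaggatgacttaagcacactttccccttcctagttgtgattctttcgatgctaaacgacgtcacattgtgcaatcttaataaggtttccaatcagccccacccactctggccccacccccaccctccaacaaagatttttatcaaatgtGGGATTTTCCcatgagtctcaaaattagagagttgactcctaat

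The motif begins 71, 97 and 44 bases before the start, in that order, and stands on either strand of 4.51% of all promoters in the table. Of the 15 largest rises, 13 had a promoter there, and 5 held the motif: Fosb, Il6, Fos, Cxcl2 and Ptx3. Of the 10 largest falls, 4 had a promoter there, and 1 held the motif: Zbtb26. GAANNTTC stood in Hspa1b, Hspa1a and Jun, and TGANTCA, the AP-1 motif (7.81% of promoters), in Il6. TGACGTCA, the cAMP response element (1.79%), stood in Has1. The CArG box, CCWWWWWWGG with W for A or T (1.63%), stood in 0 of these rises and in 1 of the falls, Cyp1a1.

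Il6 (chr5:30013114-30019981), the cytokine that signals through Il6ra and Il6st, stood at 0.0642, 0 and 0 CPM in sham and 20.7, 8.43 and 9.57 CPM at 1 h. That was 577 reads over the 3 libraries of 1 h against 1 over those of sham, a CPM ratio of 530.3 with an exact 95% counting interval from 94.8 to 20980 (adjusted p = 1.85e-06). Replicate 1 held more than the other libraries of 1 h, and without it the gene was still called. Osm, a cytokine of the same family, went from 0.0642, 0 and 0.240 CPM to 1.62, 1.91 and 2.67 CPM (log2 fold change 4.35 ± 0.69, adjusted p = 0.000320). The receptor side did not pass the test. Il6ra was one such gene (12.7, 10.9 and 11.8 CPM against 8.23, 11.7 and 11.6 CPM, log2 fold change -0.16 ± 0.20, adjusted p = 0.640). The shared subunit Il6st was another (log2 fold change -0.17 ± 0.13, adjusted p = 0.442). Osmr, the receptor of Osm, had lower values without a call (31.9, 29.5 and 30.5 CPM against 22.3, 26.5 and 23.6 CPM, log2 fold change -0.35 ± 0.20, adjusted p = 0.262). Of the transcription factors downstream of this receptor, Cebpb (log2 fold change 1.87 ± 0.36, adjusted p = 0.00184) and Cebpd (log2 fold change 1.77 ± 0.29, adjusted p = 0.000454) rose. Stat3, the latent factor, stood at 206, 166 and 188 CPM and 186, 207 and 202 CPM with overlapping groups. Over the list 6 of 17 rose and 0 fell, with a median of 0.17, and 5 or 6 in the leave-outs.

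The neutrophil attractant Cxcl1 went from 1.35, 1.71 and 4.80 CPM to 43.6, 32.0 and 37.9 CPM (log2 fold change 3.89 ± 0.39, adjusted p = 1.00e-06). Cxcl2, which shares its receptor, went from 0.450, 0.343 and 0.160 CPM to 10.4, 8.43 and 15.3 CPM (log2 fold change 5.09 ± 0.58, adjusted p = 4.76e-06). No library of 1 h overlapped with sham for either. The monocyte attractant Ccl2 went from 1.09, 1.23 and 0.480 CPM to 16.9, 6.16 and 6.71 CPM (log2 fold change 3.35 ± 0.56, adjusted p = 0.000547), with replicate 1 more than 2 times as high as the others. Ccl4, another attractant of leukocytes, went from 0.257, 0.0685 and 0.160 CPM to 2.20, 2.99 and 3.11 CPM (log2 fold change 4.02 ± 0.75, adjusted p = 0.00141). Ccl3 had 112 reads over the 3 libraries of 1 h against 1 over those of sham, a CPM ratio of 103 with an exact 95% counting interval from 18.1 to 4101. Some chemokines of resting tissue or of the interferon response were not called. Cxcl12, a stromal chemokine, was the most abundant of them (200.2, 200.1 and 179.6 CPM against 152, 207 and 194 CPM, log2 fold change -0.07 ± 0.14, adjusted p = 0.794). Cxcl9, which interferon gamma induces, had lower values at 1 h (13.5, 11.4 and 11.3 CPM against 6.83, 8.79 and 8.82 CPM, log2 fold change -0.56 ± 0.39, adjusted p = 0.366). Cxcl10 was not called either (1.73, 1.92 and 1.6 CPM against 3.45, 2.75 and 4.16 CPM, log2 fold change 0.97 ± 0.69, adjusted p = 0.380). Over the list 8 of 20 rose and 0 fell, with a median of 0.66, and 6 to 9 in the leave-outs.

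In the list of interleukin 1, TNF and NF-kappaB feedback, 10 of 23 rose and 0 fell, with a median of 0.62, and 5 to 9 rose in the leave-outs. The lowest counts were 5, 6 and 6 without sham replicates 1, 2 and 3 and 6 with 1 h replicate 1 omitted. Il1b, the cytokine that starts much of the inflammatory response, went from 0.257, 0.343 and 0.320 CPM to 3.67, 2.39 and 4.22 CPM (log2 fold change 3.45 ± 0.60, adjusted p = 0.000711). Its decoy receptor Il1r2, which binds the cytokine without signalling and is also a neutrophil marker, had 62 reads over the 3 libraries of 1 h against 2 over those of sham, a CPM ratio of 28.5 with an exact 95% counting interval from 7.56 to 240.5. The signalling receptor Il1r1 was not called (21.6, 22.6 and 19.4 CPM against 17.2, 20.8 and 20.3 CPM, log2 fold change -0.12 ± 0.17, adjusted p = 0.688). Tnf had 0.257, 0.137 and 0.320 CPM in sham and 0.661, 2.33 and 2.05 CPM at 1 h (log2 fold change 2.81 ± 0.80, adjusted p = 0.0250). It kept its call only without 1 h replicate 1 and lost it in the other 5 leave-outs, with an adjusted p from 0.0524 without 1 h replicate 3 to 0.0989 without sham replicate 2. Among the inhibitors, Nfkbia, which encodes the inhibitor IkappaB-alpha, rose (log2 fold change 0.64 ± 0.18, adjusted p = 0.0250), but lost the call with sham replicate 1 or 2 omitted (adjusted p = 0.0983 and 0.0967) and with 1 h replicate 1 or 3 omitted (adjusted p = 0.0794 and 0.0598) and with the length trend removed (adjusted p = 0.145). Nfkbiz, a nuclear inhibitor and cofactor of NF-kappaB, went from 5.20, 6.78 and 11.2 CPM to 53.7, 75.7 and 84.0 CPM (log2 fold change 3.22 ± 0.36, adjusted p = 3.98e-06). Tnfaip3, the enzyme A20 that shuts TNF signalling, went from 4.17, 5.0 and 4.08 CPM to 14.5, 21.1 and 29.6 CPM (log2 fold change 2.30 ± 0.35, adjusted p = 0.000165). In both genes replicate 1 was the lowest library of 1 h and replicate 3 the highest. The NF-kappaB subunit gene Nfkb1 was not called (56.6, 36.9 and 55.6 CPM against 46.8, 55.3 and 51.3 CPM, log2 fold change 0.04 ± 0.18, adjusted p = 0.905). Neither was Nfkb2, which encodes another subunit (24.4, 19.7 and 18.5 CPM against 20.7, 30.7 and 26.2 CPM, log2 fold change 0.31 ± 0.20, adjusted p = 0.325).

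Endothelial adhesion molecules, on which leukocytes roll and stop, divided. Sele, which encodes E-selectin, went from 1.6, 2.06 and 1.52 CPM to 7.12, 6.45 and 10.2 CPM (log2 fold change 2.19 ± 0.38, adjusted p = 0.000806). Icam1, which firm adhesion needs, went from 11.8, 11.4 and 10.7 CPM to 21.8, 25.8 and 21.6 CPM (log2 fold change 1.03 ± 0.21, adjusted p = 0.00361). Selp, encoding P-selectin, was not called at this time (0.0642, 0.274 and 0.160 CPM against 0.220, 0.598 and 0.994 CPM, log2 fold change 1.87 ± 0.75, adjusted p = 0.109). Neither was Vcam1 (17.0, 13.6 and 18.2 CPM against 15.9, 17.7 and 18.8 CPM, log2 fold change 0.11 ± 0.22, adjusted p = 0.800). In all, 2 of 7 rose, with a median of 0.35, and the same number in each leave-out. In prostaglandin synthesis the inducible enzyme Ptgs2 went from 0.835, 0.890 and 1.76 CPM to 19.5, 24 and 23.6 CPM (log2 fold change 4.29 ± 0.46, adjusted p = 1.85e-06). The constitutive Ptgs1 was not called (8.67, 9.79 and 11.7 CPM against 9.84, 11.5 and 11.9 CPM, log2 fold change 0.15 ± 0.19, adjusted p = 0.666). Nor was the terminal synthase Ptges (0.963, 0.959 and 0.959 CPM against 0.735, 0.478 and 0.683 CPM, log2 fold change -0.61 ± 0.45, adjusted p = 0.404). Ptger4, a receptor of prostaglandin E2, rose (log2 fold change 1.29 ± 0.31, adjusted p = 0.00870) and lost the call with sham replicate 1 omitted (adjusted p = 0.0599). Over that list 2 of 16 rose and 0 fell, with a median of 0.15, and 1 was called without sham replicate 1. Ptx3, a pentraxin that marks microbes and damaged cells for complement, went from 0.385, 0.411 and 0.400 CPM to 13.2, 13.3 and 8.51 CPM (log2 fold change 4.84 ± 0.66, adjusted p = 5.14e-05).

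Genes that limit these signals rose at the same time. Socs3, the inhibitor that binds the Il6st receptor and blocks its kinase, has a STAT motif, TTCNNNGAA (the same on both strands), in the 250 bases before its start, shown because the gene is a target of the factor that binds such letters. The window is the minus strand of chr11:117969367-117969616 (RefSeq, GRCm38.p6), the motif is in capitals, and it begins 154 bases before the start.

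Socs3: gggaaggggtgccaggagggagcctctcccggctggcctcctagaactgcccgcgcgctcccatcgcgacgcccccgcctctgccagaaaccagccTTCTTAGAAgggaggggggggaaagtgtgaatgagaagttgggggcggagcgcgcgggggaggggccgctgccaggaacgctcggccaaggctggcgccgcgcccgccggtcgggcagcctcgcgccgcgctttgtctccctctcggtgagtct

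These letters stand in 8.30% of all promoters in the table, and Socs3 was the one of the 13 matched rises that held them. Socs3 went from 2.95, 2.67 and 1.6 CPM to 151, 125 and 67.7 CPM (log2 fold change 5.55 ± 0.58, adjusted p = 1.48e-06), and replicate 3 of 1 h was the lowest of its group, as for Atf3. Among phosphatases and Sprouty proteins, which switch off MAP kinases and growth factor receptors, 7 of 16 rose and 0 fell, with a median of 1.01, and 7 were called in each leave-out. Dusp1, the nuclear phosphatase of p38 and JNK, went from 126, 141 and 162 CPM to 652, 605 and 582 CPM (log2 fold change 2.10 ± 0.31, adjusted p = 0.000121). Errfi1, an inhibitor of the EGF receptor, went from 56.9, 60.5 and 80.4 CPM to 258, 234 and 200.3 CPM (log2 fold change 1.81 ± 0.23, adjusted p = 2.95e-05). Spry4 and Spry2 rose, the former by 1.51 ± 0.30 (log2, adjusted p = 0.00230) and the latter by 1.24 ± 0.17 (adjusted p = 6.51e-05). Spry1 was not called (43.7, 42.5 and 42.5 CPM against 61.9, 58.6 and 47.1 CPM, log2 fold change 0.38 ± 0.17, adjusted p = 0.145).

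Factors that shorten the life of messengers or hold back division also rose, with 7 of 9 rises, 0 falls and a median of 1.26, and 6 or 7 rises in the leave-outs. Zfp36, a protein that binds the AU-rich elements of cytokine messengers and brings on their decay, went from 43.3, 55.9 and 54.3 CPM to 594, 492 and 402 CPM (log2 fold change 3.28 ± 0.29, adjusted p = 3.30e-07). Zc3h12a, the endonuclease that cuts the Il6 messenger, went from 5.65, 3.01 and 6.56 CPM to 17.0, 17.8 and 14.9 CPM (log2 fold change 1.71 ± 0.30, adjusted p = 0.000821). Btg2, an adaptor of the deadenylase and a p53 target, went from 37.3, 47.0 and 82.0 CPM to 735, 628 and 502 CPM (log2 fold change 3.49 ± 0.44, adjusted p = 1.75e-05). For Zfp36 and Btg2 replicate 1 was the highest library of 1 h and replicate 3 the lowest, and all 3 lay above sham. Zfp36l1 (log2 fold change 1.52 ± 0.22, adjusted p = 9.56e-05), Btg1 (log2 fold change 1.26 ± 0.20, adjusted p = 0.000329) and Tob1 (log2 fold change 0.92 ± 0.17, adjusted p = 0.00175) had smaller rises.

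Of the p53 targets and Gadd45 genes, 9 of 18 rose and 0 fell, with a median of 0.84, and 7 to 10 in the leave-outs. Gadd45g, a stress sensor upstream of p38, went from 20.8, 23.7 and 18.1 CPM to 151, 93.8 and 73.3 CPM (log2 fold change 2.34 ± 0.36, adjusted p = 0.000232). Gadd45b went from 8.67, 11 and 15.7 CPM to 43.3, 46.3 and 42.0 CPM (log2 fold change 1.90 ± 0.29, adjusted p = 0.000169). The polo-like kinase Plk3 went from 3.15, 4.38 and 5.76 CPM to 21.7, 25.6 and 22.1 CPM (log2 fold change 2.40 ± 0.29, adjusted p = 1.40e-05). Pmaip1, which encodes the death promoter Noxa, went from 0.321, 0.616 and 0.879 CPM to 3.45, 4.42 and 4.41 CPM (log2 fold change 2.78 ± 0.51, adjusted p = 0.00124). Among p53 targets without a call, Mdm2, the inhibitor of p53, stood at 70.8, 64.9 and 74.9 CPM and 69.6, 71.9 and 70.9 CPM (log2 fold change 0.01 ± 0.10, adjusted p = 0.955). The cell cycle inhibitor Cdkn1a stood at 117, 61.8 and 40.1 CPM and 139.7, 162 and 101 CPM (log2 fold change 0.88 ± 0.32, adjusted p = 0.0736).

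For ferroptosis the list held the lipid, iron and cystine arms of the process. Of 31 tested members, 5 rose and 2 fell, with a median of 0.33, and in the leave-outs 4 to 6 rose. The rises were those of Sat1, Ftl1, Slc3a2, Hmox1 and Ptgs2, and the falls those of Tfrc and of Ireb2, an iron sensor that binds messengers (log2 fold change -0.39 ± 0.12, adjusted p = 0.0399). No fall was called without sham replicate 1, sham replicate 2 or 1 h replicate 1, nor with the length trend removed. With sham replicate 3 or 1 h replicate 2 omitted the 1 fall called was that of Tfrc, so Ireb2 lost its call there too. Fancd2, a DNA repair protein that the series title ties to ferroptosis, was low at 0.450, 0.479 and 0.720 CPM in sham and 1.18, 0.956 and 0.311 CPM at 1 h, and not called (log2 fold change 0.56 ± 0.75, adjusted p = 0.675). Sat1, the polyamine acetyltransferase that p53 induces, went from 25.6, 26.9 and 31.3 CPM to 188, 159.9 and 134 CPM (log2 fold change 2.52 ± 0.27, adjusted p = 1.94e-06). Ftl1, the light chain of the iron store ferritin, went from 114, 135 and 131 CPM to 314, 239 and 251 CPM (log2 fold change 1.08 ± 0.20, adjusted p = 0.00103). The heavy chain Fth1 had 984, 1028 and 921 CPM and 1684, 1000 and 1009 CPM, and only replicate 1 lay above every sham library (log2 fold change 0.33 ± 0.15, adjusted p = 0.142). Slc3a2, the heavy chain of the cystine importer, rose (log2 fold change 0.80 ± 0.17, adjusted p = 0.00454). Its partner Slc7a11 stayed below 1 CPM without a call (0.257, 0.137 and 0.240 CPM against 0.220, 0.538 and 0.311 CPM, log2 fold change 0.76 ± 0.74, adjusted p = 0.542). Hmox1, the heme-degrading enzyme, went from 7.58, 5.96 and 8.0 CPM to 30.3, 23.9 and 23.1 CPM (log2 fold change 1.84 ± 0.45, adjusted p = 0.0109), and lost the call with sham replicate 2 omitted (adjusted p = 0.0541) and with 1 h replicate 1 omitted (adjusted p = 0.0556). The lipid peroxidase Gpx4, which protects membranes, had 288, 303 and 319 CPM in sham and 495, 313 and 367 CPM at 1 h (log2 fold change 0.37 ± 0.13, adjusted p = 0.0728), highest in replicate 1. Its call depended on the setting. Gpx4 was called with duplicates removed (0.48, adjusted p = 0.0131), with multiply mapped reads included (0.40, adjusted p = 0.0478) and by DESeq2 (0.37, adjusted p = 0.0478). By limma-voom (0.34, adjusted p = 0.0831) and with the length trend removed (0.16, adjusted p = 0.404) it was not. The lipid-activating enzyme Acsl4, which promotes the process, was not called (23.1, 22.4 and 24.9 CPM against 22.3, 20.5 and 21.0 CPM, log2 fold change -0.14 ± 0.13, adjusted p = 0.513).

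The transferrin receptor Tfrc, the iron importer, fell from 386, 257 and 103 CPM to 60.5, 88.1 and 66.2 CPM (log2 fold change -1.80 ± 0.53, adjusted p = 0.0303). Its sham libraries spanned a wide range, and the lowest of them, replicate 3, lay close to the 1 h libraries. The gene lost the call with sham replicate 1 or 2 omitted (adjusted p = 0.156 and 0.0711) and with 1 h replicate 1 or 3 omitted (adjusted p = 0.138 and 0.0727) and with the length trend removed (adjusted p = 0.0538).

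Secreted matrix and growth factor genes rose in part. Of 33 tested matrix, protease and matricellular genes 9 rose and 0 fell, with a median of 0.21 and 8 or 9 rises in the leave-outs. Has1, an enzyme that makes hyaluronan, stood at 0.0642, 0 and 0 CPM in sham and 5.51, 8.61 and 3.04 CPM at 1 h. That was 268 reads over the 3 libraries of 1 h against 1 over those of sham, a CPM ratio of 246 with an exact 95% counting interval from 43.8 to 9764 (adjusted p = 9.19e-05). Ccn1, a matricellular protein and target of the mechanosensor YAP, went from 62.5, 90.8 and 122 CPM to 903, 742 and 684 CPM (log2 fold change 3.08 ± 0.40, adjusted p = 3.32e-05). Plat, a plasminogen activator, had a smaller rise (log2 fold change 0.71 ± 0.17, adjusted p = 0.00761). Adamts1, a metalloprotease, went from 61.1, 66.8 and 71.2 CPM to 308, 410.5 and 325 CPM (log2 fold change 2.39 ± 0.38, adjusted p = 0.000284). Thbs1, an adhesive glycoprotein that activates TGF-beta, rose too (log2 fold change 2.32 ± 0.37, adjusted p = 0.000329). The structural collagen gene Col1a1 was not called and had 149, 138 and 119 CPM and 129, 198 and 143 CPM with overlapping groups (log2 fold change 0.21 ± 0.28, adjusted p = 0.666). Among growth factor ligands 5 of 24 rose and 0 fell, with a median of 0.31, and 4 to 7 in the leave-outs. One was the stress hormone Gdf15 (0.835, 0.890 and 0.799 CPM against 4.70, 6.16 and 3.48 CPM, log2 fold change 2.49 ± 0.57, adjusted p = 0.00685). The vasoconstrictor Edn1 (log2 fold change 1.54 ± 0.33, adjusted p = 0.00411) and Bmp2 (log2 fold change 1.55 ± 0.33, adjusted p = 0.00429) were others. Vegfa, the main endothelial growth factor, was not called (293, 302 and 255 CPM against 257, 345 and 277 CPM, log2 fold change 0.05 ± 0.15, adjusted p = 0.875). The metal-binding Mt2 went from 38.9, 19.8 and 63.1 CPM to 275, 137 and 119 CPM (log2 fold change 2.13 ± 0.37, adjusted p = 0.000742), and replicate 1 had about 2 times the level of the others. Of its list of metal and glucocorticoid targets 3 of 13 rose, with 2 rises without sham replicate 1, sham replicate 2 or 1 h replicate 1.

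Cardiomyocyte genes split by class: stretch-induced genes rose in part, while most channel and sarcomere genes were not called. Among the stretch-induced and fetal genes 6 of 15 rose and 0 fell, with a median of 0.33, and the rises numbered 4, 3, 3 and 4 without sham replicate 2, sham replicate 3, 1 h replicate 1 and 1 h replicate 2. Rrad, a small GTPase that restrains the L-type calcium channel, went from 57.9, 87.3 and 62.8 CPM to 433, 306 and 242 CPM (log2 fold change 2.24 ± 0.31, adjusted p = 6.67e-05). The atrial natriuretic peptide Nppa went from 23.6, 16.4 and 7.28 CPM to 59.9, 53.3 and 44.5 CPM (log2 fold change 1.73 ± 0.34, adjusted p = 0.00222), and sham replicate 1 was its highest sham library. The related Nppb (log2 fold change 1.49 ± 0.38, adjusted p = 0.0129) lost the call with sham replicate 3 omitted (adjusted p = 0.0752) and with 1 h replicate 1 omitted (adjusted p = 0.101) and with the length trend removed (adjusted p = 0.0624). Of ion channel and calcium handling genes 1 rose and 1 fell among 29, with a median of -0.28, a share below that of all tested genes. With the length trend removed 0 rose and 0 fell, and the median was -0.25. The channel subunit Cacnb2 fell (log2 fold change -0.59 ± 0.16, adjusted p = 0.0207) but lost the call with sham replicate 1 or 3 omitted (adjusted p = 0.134 and 0.0698) and with 1 h replicate 1 omitted (adjusted p = 0.120) and with the length trend removed (adjusted p = 0.13). The potassium channel Kcnj8, also a pericyte marker, rose (log2 fold change 0.50 ± 0.14, adjusted p = 0.0208) but lost the call with sham replicate 1 or 3 omitted (adjusted p = 0.0986 and 0.0698) and with 1 h replicate 1 omitted (adjusted p = 0.122) and with the length trend removed (adjusted p = 0.0647). In the sarcomere list 2 of 18 rose, a share close to that of all tested genes, and 0 without sham replicate 1, sham replicate 2 or 1 h replicate 1. These were the titin cap gene Tcap (log2 fold change 0.95 ± 0.24, adjusted p = 0.0120) and the ventricular light chain gene Myl2 (log2 fold change 0.52 ± 0.15, adjusted p = 0.0320). Tcap lost the call with sham replicate 1 or 2 omitted (adjusted p = 0.0710 and 0.0714) and with 1 h replicate 1 omitted (adjusted p = 0.0679) and with the length trend removed (adjusted p = 0.0834). Myl2 lost the call with sham replicate 1, 2 or 3 omitted (adjusted p = 0.111, 0.0512 and 0.107) and with 1 h replicate 1 omitted (adjusted p = 0.276) and with the length trend removed (adjusted p = 0.117). The main contractile protein Myh6 stood at 26690, 25220 and 25000 CPM in sham and 16080, 28550 and 26710 CPM at 1 h, lowest in 1 h replicate 1, without a call (log2 fold change -0.11 ± 0.17, adjusted p = 0.726).

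Nuclear genes of the respiratory chain, most of which are short, moved with replicate 1. Of 30 tested, 12 rose and 0 fell, with a median of 0.36, while 4 rose without 1 h replicate 1 (median 0.13) and 8 with the length trend removed (median 0.17). Ndufb8, a complex I subunit, had 95.3, 102 and 91.2 CPM in sham and 283, 192 and 171 CPM at 1 h (log2 fold change 1.17 ± 0.22, adjusted p = 0.00154), and 1.12 with the trend removed. Cox8b, the muscle form of a complex IV subunit, had 189, 201 and 179.6 CPM and 529, 276 and 286 CPM (log2 fold change 0.94 ± 0.19, adjusted p = 0.00345), and 0.49 with the trend removed. In both genes replicate 1 was well above replicates 2 and 3, which were still above sham. The part of the length trend in these results was measured by that removal and not otherwise tested. Fabp3, the fatty acid carrier of heart muscle, went from 1409, 1395 and 1458 CPM to 3933, 2633 and 2614 CPM (log2 fold change 1.11 ± 0.16, adjusted p = 9.56e-05), and 0.75 with the trend removed. On the deposited RPKM scale Fabp3 was at 1231 ± 27.1 in sham and 2819 ± 411 at 1 h (mean ± SD, n = 3). The other oxidation genes were mostly not called: 4 of 24 rose and 0 fell, and 2 rose without sham replicate 2, sham replicate 3 or 1 h replicate 1. In glycolysis 5 of 23 rose and 0 fell, and 2 or 3 without any 1 of the sham libraries or without 1 h replicate 1. Gapdh had 23.7, 28.6 and 33.4 CPM and 96.7, 50.5 and 48.7 CPM (log2 fold change 1.19 ± 0.22, adjusted p = 0.00133), with 86.3% of its reads mapped uniquely. Of the 13 protein genes of the mitochondrial genome 0 rose and 1 fell, with a median of -0.29, while with the length trend removed 5 fell and the median was -0.57. The one called, mt-Nd5 (log2 fold change -0.62 ± 0.18, adjusted p = 0.0306), lost the call with sham replicate 2 or 3 omitted (adjusted p = 0.0845 and 0.113) and with 1 h replicate 1 or 2 omitted (adjusted p = 0.0534 and 0.112). With duplicate reads removed its log2 fold change was -0.15 (adjusted p = 0.444), and those of mt-Co1, mt-Cytb and mt-Nd1 were 0.08, 0.10 and 0.05, none of them called.

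**Figure D3:**
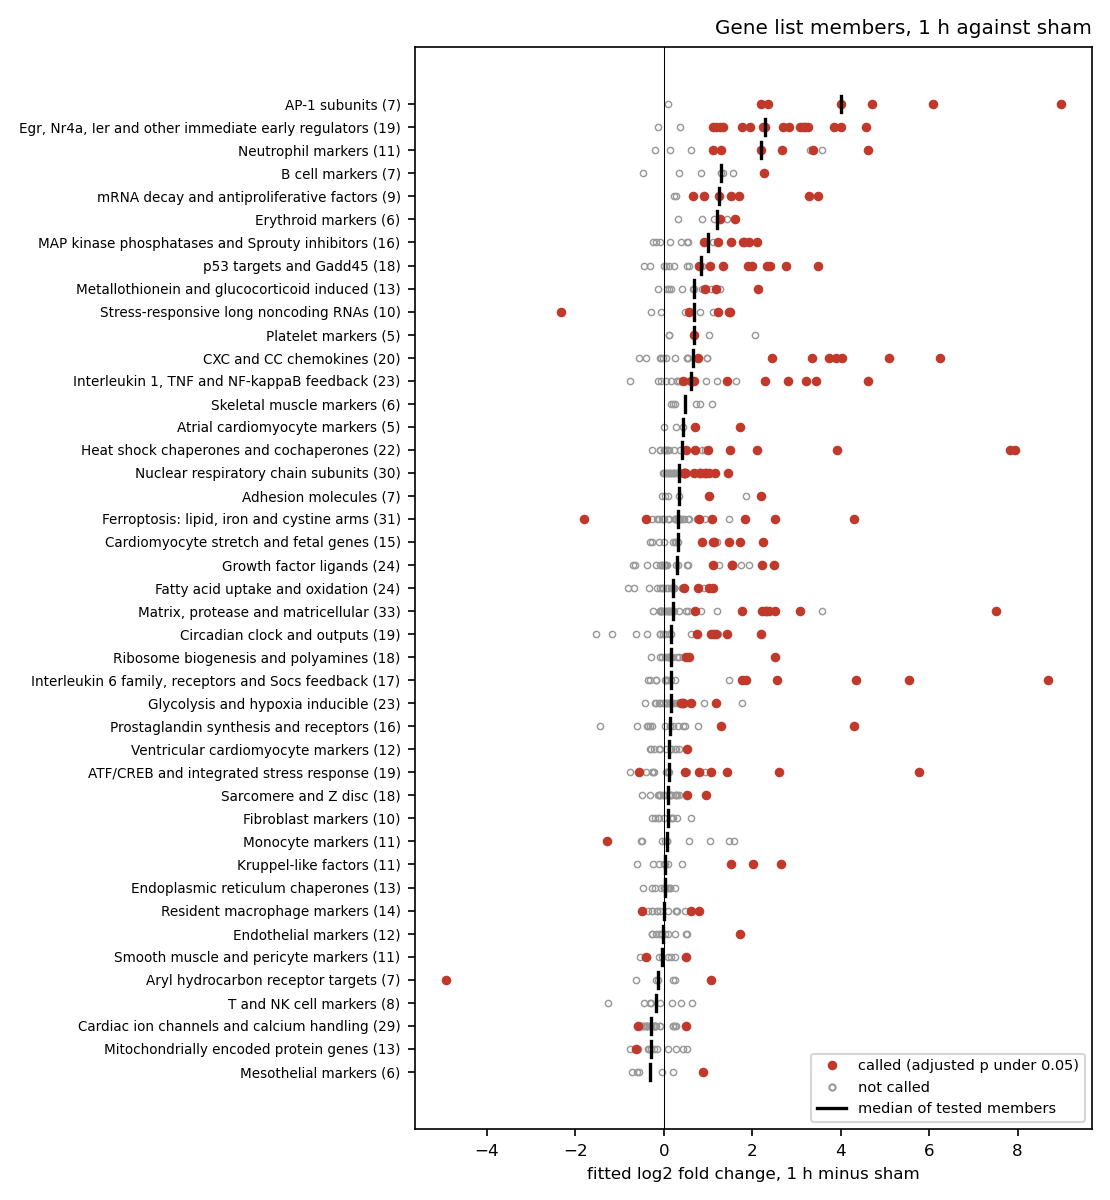
Fitted log2 fold change (1 h minus sham) of the tested members of each list with at least 5 of them; the number tested stands in parentheses, filled red points were called, open grey points were not, and bars mark medians. AP-1 subunits lie farthest to the right with a median of 4.01, while the medians of the endoplasmic reticulum chaperones (0.03) and of the fibroblast markers (0.09) lie near 0.

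Several clock and xenobiotic receptor genes spread widely within sham. Of the clock genes and their outputs 6 of 19 rose and 0 fell, and 3, 3, 3, 4 and 4 rose without sham replicate 1, sham replicate 2, 1 h replicate 1, 1 h replicate 2 and 1 h replicate 3. The falls numbered 0 to 3 in the leave-outs. Bhlhe40, a clock repressor that stress also induces, went from 26.1, 36.0 and 53.1 CPM to 118, 101 and 89.0 CPM (log2 fold change 1.42 ± 0.30, adjusted p = 0.00404). The core clock gene Per1, which glucocorticoids also raise, went from 73.7, 84.2 and 131 CPM to 177, 237 and 244 CPM (log2 fold change 1.19 ± 0.28, adjusted p = 0.00836) and lost the call with sham replicate 1 omitted (adjusted p = 0.0587). No source used here gives the hour at which tissue was taken. Cyp1a1 (chr9:57687928-57703824), the detoxifying enzyme that the aryl hydrocarbon receptor induces, fell from 8.60, 28.5 and 0.799 CPM to 0.661, 0.418 and 0.186 CPM (log2 fold change -4.92 ± 1.24, adjusted p = 0.0123). Its sham libraries spanned more than an order of magnitude, sham replicate 3 lay just above the 1 h libraries, and the gene lost the call with sham replicate 2 omitted (adjusted p = 0.0974) and with 1 h replicate 1 omitted (adjusted p = 0.0574). In that receptor's list of 7 tested genes 1 rose and 1 fell. The rise was that of Tiparp, a feedback inhibitor of the receptor (log2 fold change 1.07 ± 0.28, adjusted p = 0.0148). It lost the call with sham replicate 2 omitted (adjusted p = 0.0855) and with 1 h replicate 1 omitted (adjusted p = 0.0563).

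Of the 10 largest falls, several were of genes at low levels in both groups. Atcay (chr10:81204508-81230833), a neuronal adaptor protein gene that shares bases with the antisense gene Atcayos, fell from 9.38, 18.0 and 11.9 CPM to 2.20, 1.2 and 2.11 CPM (log2 fold change -2.84 ± 0.69, adjusted p = 0.00976). The long intergenic RNA gene AI480526 fell from 9.95, 7.67 and 8.63 CPM to 2.20, 1.31 and 1.74 CPM (log2 fold change -2.33 ± 0.32, adjusted p = 6.67e-05). The gene 9430062P05Rik fell from 5.97, 6.44 and 7.92 CPM to 1.18, 1.25 and 1.74 CPM (log2 fold change -2.27 ± 0.40, adjusted p = 0.000922). All 3 genes had every library of 1 h below every sham library by more than 2 times. Zbtb26, a zinc finger protein gene that shares bases with Zbtb6, fell from 8.09, 5.41 and 6.24 CPM to 1.84, 2.15 and 2.42 CPM (log2 fold change -1.62 ± 0.32, adjusted p = 0.00239). BC002189, which overlaps Trim55, fell (log2 fold change -1.58 ± 0.45, adjusted p = 0.0268) but lost the call with sham replicate 1 or 3 omitted (adjusted p = 0.0758 and 0.0786) and with 1 h replicate 1 or 2 omitted (adjusted p = 0.150 and 0.0516). Transfer RNA genes of the mitochondrial genome fell too, with mt-Ts2 (log2 fold change -1.96 ± 0.29, adjusted p = 0.000124) and mt-Ti (log2 fold change -1.93 ± 0.34, adjusted p = 0.000932) among the 10, and both overlap neighbouring genes. In the list of long noncoding RNA genes assembled for stress, 4 of 10 rose and 1, AI480526, fell. Of that list 2 rose without any 1 of the sham libraries or without 1 h replicate 1. The host gene of small nucleolar RNAs Snhg15 (log2 fold change 1.23 ± 0.28, adjusted p = 0.00714) and Gm26917 (log2 fold change 1.49 ± 0.29, adjusted p = 0.00189) were the rises that kept the call. This list, too, was written with earlier results of these data known, and a role of its members in stress was not tested.

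After the values were seen, 3 families were counted because they recurred. Of 409 tested zinc finger genes with names beginning Zfp, Zscan, Zkscan or Zbtb, 9 rose and 54 fell, with a median of -0.31, against 3.41% of all tested genes that fell. With the length trend removed 8 rose and 41 fell, and without 1 h replicate 1, 7 rose and 21 fell. Of 84 genes of cytosolic ribosomal proteins, whose messengers are short, 42 rose and 0 fell, with a median of 0.47. Of all tested genes 7.46% rose, and in the shortest quintile 515 of 2025 genes did, with a median of 0.27. The number of ribosomal protein genes that rose was 29 with the length trend removed and 20 without 1 h replicate 1. Of 16 mitochondrial transfer RNA genes 0 rose and 6 fell, against the 3.41% of all tested genes that fell, and with the length trend removed 11 fell.

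Markers of blood cells were read beside the inflammatory genes. Neutrophil markers summed to 7.19 to 12.6 CPM in the sham libraries and 21.0 to 26.6 CPM at 1 h. Of them 6 of 11 rose and 0 fell, with a median of 2.20, and 2, 3, 3, 4 and 3 rose without sham replicate 1, sham replicate 2, 1 h replicate 1, 1 h replicate 2 and 1 h replicate 3. Besides Il1r2, the histamine-making enzyme Hdc kept its call in each leave-out (2.63, 3.08 and 5.12 CPM against 8.37, 8.13 and 9.69 CPM, log2 fold change 1.29 ± 0.29, adjusted p = 0.00591). Hdc made up 8.37, 8.13 and 9.69 CPM of the summed 25.0, 21.0 and 26.6 CPM at 1 h. With the length trend removed 3 markers rose. Members not called in the main fit included Mmp9 (log2 fold change 0.15, adjusted p = 0.877), Clec4d (-0.20, adjusted p = 0.881) and Cxcr2 (0.61, adjusted p = 0.65). The abundant neutrophil gene S100a9 had 0.128, 0.343 and 1.04 CPM and 3.31, 2.09 and 3.92 CPM (log2 fold change 2.69 ± 0.66, adjusted p = 0.0105) and lost the call with sham replicate 1 or 2 omitted (adjusted p = 0.0717 and 0.0534). The levels of all these markers were low, and their part in the rise of chemokines and Il1b was not tested. Of the monocyte markers 0 of 11 rose and 1 fell, the chemokine receptor Ccr2 (log2 fold change -1.28 ± 0.36, adjusted p = 0.0239). That gene lost the call with sham replicate 1 or 3 omitted (adjusted p = 0.0781 and 0.0785) and with 1 h replicate 1, 2 or 3 omitted (adjusted p = 0.0698, 0.0655 and 0.0526) and with the length trend removed (adjusted p = 0.0523). The sum of the monocyte markers was 134 to 139.7 CPM in sham and 115 to 167 CPM at 1 h. Resident macrophage markers summed to 378 to 407 CPM and 404 to 461 CPM. Of them 2 of 14 rose and 1 fell, with a median of 0.00. With 1 library omitted 1 or 2 rose and 0 fell, except that 2 fell without 1 h replicate 3, and with the length trend removed 1 rose and 0 fell. The fall was that of Mrc1, a mannose receptor (log2 fold change -0.49 ± 0.15, adjusted p = 0.0388), which lost the call with sham replicate 1, 2 or 3 omitted (adjusted p = 0.0913, 0.0867 and 0.105) and with 1 h replicate 1 or 2 omitted (adjusted p = 0.192 and 0.0533) and with the length trend removed (adjusted p = 0.101). The complement subunit gene C1qc rose (log2 fold change 0.61 ± 0.18, adjusted p = 0.0297) but lost the call with sham replicate 1, 2 or 3 omitted (adjusted p = 0.0588, 0.125 and 0.0642) and with 1 h replicate 1 omitted (adjusted p = 0.191) and with the length trend removed (adjusted p = 0.0889). C1qa, which encodes a partner subunit, rose (log2 fold change 0.81 ± 0.18, adjusted p = 0.00495), and 0.49 was left with the length trend removed. Erythroid markers summed to 79.5 to 186 CPM in sham and 213 to 334 CPM at 1 h, and were highest in 1 h replicate 1. Of them 2 of 6 rose, with 0 called without sham replicate 1, sham replicate 2 or 1 h replicate 1 and 0 with the length trend removed. These were the adult hemoglobin genes Hbb-bs (log2 fold change 1.28 ± 0.36, adjusted p = 0.0245) and Hbb-bt (log2 fold change 1.61 ± 0.44, adjusted p = 0.020). Of their reads, 62.3% and 12.8% mapped uniquely. With multiply mapped reads included neither was called, at 1.09 (adjusted p = 0.0534) and 0.98 (adjusted p = 0.115). Endothelial markers summed to 1723 to 2036 CPM and 2013 to 2242 CPM, and Cldn5, which encodes a tight junction protein, was the only one of 12 called (23.8, 28.1 and 34.7 CPM against 118, 89.7 and 78.8 CPM, log2 fold change 1.73 ± 0.38, adjusted p = 0.00553), also in each leave-out. Of the fibroblast markers 0 of 10 rose and 0 fell, also in each leave-out, with a median of 0.09 and sums of 2334 to 2411 CPM and 2286 to 2736 CPM. Smooth muscle and pericyte markers summed to 1739 to 1774 CPM in sham and 1275 to 1566 CPM at 1 h, so the sums did not overlap. The median log2 fold change of the list lay near 0, at -0.04, with 0.04 without 1 h replicate 1 and -0.02 with the length trend removed. Of its 11 tested genes 1 rose, Kcnj8, and 1 fell, the pericyte gene Rgs5 (log2 fold change -0.39 ± 0.13, adjusted p = 0.0477), and in each leave-out the fall was not called, with an adjusted p from 0.0576 to 0.179. It was not called with the length trend removed either (adjusted p = 0.0920). Markers of T and NK cells held 0 called genes of 8, and their sum was 4.38 to 11.1 CPM in sham and 6.45 to 6.76 CPM at 1 h.

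The groups on either side in time placed 1 h within the series. Against 0.5 h of reperfusion 0 of 15128 genes were called by edgeR's quasi-likelihood test (0%), 0 by DESeq2 and 0 by limma-voom, and 1003 had an unadjusted p under 0.05. Without 0.5 h replicate 3 the count was 3, namely Plek, Rnd3 and Dnajb1, with 2.48 for Dnajb1 on the log2 scale and an adjusted p = 0.03. The closest pair of libraries in the series, by the chi-square of their counts, joined these groups: 0.5 h replicate 3 and 1 h replicate 2, at 5.31 per degree of freedom. Both groups are compared with the same sham libraries, so their changes are given side by side. Fos had 520.3 ± 352 CPM at 0.5 h and 804 ± 134 CPM at 1 h (mean ± SD, n = 3). Atf3 had 229 ± 174 CPM at 0.5 h and 466 ± 98.9 CPM at 1 h. Neither difference was called (adjusted p = 0.773 and 0.744). For both genes 0.5 h replicate 2 was the lowest library: its Fos level was 151 CPM against 558 and 852 CPM in replicates 1 and 3. Hspa1a had 74.8, 86.7 and 565 CPM at 0.5 h, where replicate 3 alone reached the range of 1 h. Il6 had 5.48, 1.08 and 6.33 CPM at 0.5 h, all below the lowest library of 1 h, and the difference was not called (log2 fold change 1.58 ± 0.43, adjusted p = 0.729).

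**Figure D4:**
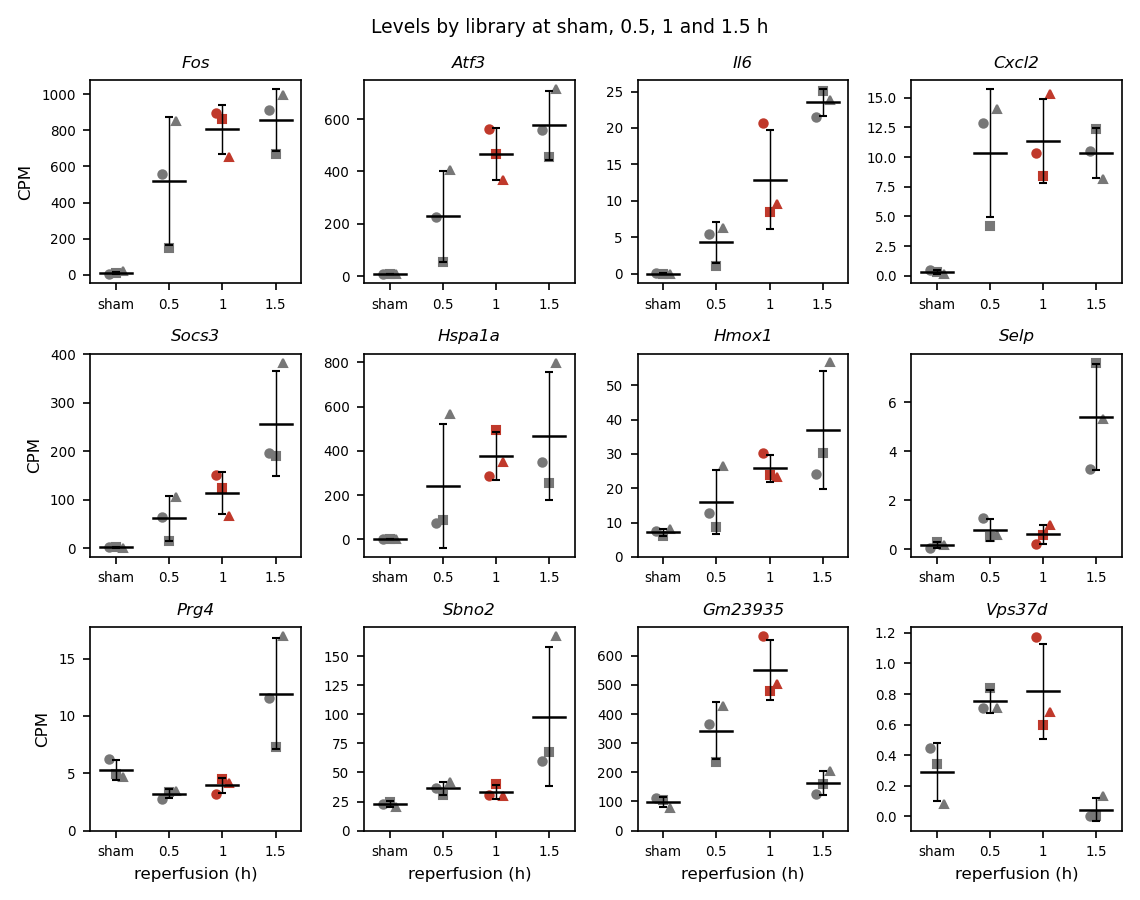
CPM per library (linear axes) of 12 genes in sham and at 0.5, 1 and 1.5 h of reperfusion, with 1 h in red; bars mark the mean and whiskers the SD of 3 libraries, and mark shapes the replicate. Fos and Atf3 overlap between 1 and 1.5 h, while Selp, Prg4 and Sbno2 stand higher in every library of 1.5 h than of 1 h, and Gm23935 and Vps37d lower.

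From 1 h to 1.5 h, 10 genes were called (0.0661%), 8 higher (0.0529%) and 2 lower (0.0132%), and without 1 h replicate 1 the number was 0. Selp, the selectin that was not called against sham at 1 h, stood at 0.220, 0.598 and 0.994 CPM at 1 h and 3.27, 7.62 and 5.31 CPM at 1.5 h (log2 fold change 3.11 ± 0.43, adjusted p = 0.00255). The related selectin gene Sele had risen by 1 h already, at 7.12, 6.45 and 10.2 CPM. At 1.5 h it had 17.8 ± 3.48 CPM, and the difference from 1 h was not called. Prg4, which encodes the secreted lubricant protein lubricin, stood at 3.23, 4.48 and 4.16 CPM and 11.6, 7.28 and 17.0 CPM (log2 fold change 1.58 ± 0.24, adjusted p = 0.00439). Sbno2, a corepressor induced by interleukin 10, stood at 30.7, 40.4 and 29.4 CPM and 59.8, 67.2 and 168 CPM (log2 fold change 1.55 ± 0.28, adjusted p = 0.0220), with 1.5 h replicate 3 far above the others. Rel, the inducible NF-kappaB subunit, stood at 26.7, 28.5 and 26.7 CPM and 43.7, 59.1 and 56.6 CPM (log2 fold change 0.96 ± 0.15, adjusted p = 0.00439). No library of 1 h overlapped with those of 1.5 h for these 4 genes. Ripk1, a kinase of the TNF receptor complex (log2 fold change 1.21 ± 0.21, adjusted p = 0.0220), and the elongation factor Ell2 (log2 fold change 1.30 ± 0.25, adjusted p = 0.0374) were higher as well. So were the zinc finger factor Ikzf4 (log2 fold change 2.52 ± 0.45, adjusted p = 0.0220) and Grrp1 (log2 fold change 1.02 ± 0.20, adjusted p = 0.0374). Grrp1 and Rel lie beyond the 6 largest rises and are named because the count is small. Without 1 h replicate 3, Ikzf4, Sbno2, Ell2, Ripk1, Grrp1, Rel, Gm23935 and Vps37d lost the call. Without 1 h replicate 2, Ikzf4, Ell2 and Grrp1 did. Without 1.5 h replicate 1 it was Ell2, Gm23935 and Vps37d, without 1.5 h replicate 2 Gm23935 and Vps37d, and without 1.5 h replicate 3 Ikzf4, Sbno2, Ell2, Ripk1 and Grrp1. In that order, 2, 8, 20, 9 and 6 genes were called in all. Downward, Gm23935, annotated as a microRNA gene of 57 bases inside Zc3h7a, had 111, 105 and 78.1 CPM in sham, 668, 479.5 and 502 CPM at 1 h and 125, 161 and 205 CPM at 1.5 h (log2 fold change -1.75 ± 0.31, adjusted p = 0.0220). Against sham it had risen at 1 h (log2 fold change 2.48 ± 0.32, adjusted p = 2.64e-05). Vps37d, a sorting complex subunit below the level set for naming, had 37 reads over the libraries of 1 h and 2 over those of 1.5 h, a CPM ratio of 0.0559 with an exact 95% counting interval from 0.00653 to 0.217. Among the members raised against sham, Fos had 857 ± 169.5 CPM, Atf3 576 ± 131 CPM and Socs3 257 ± 108 CPM at 1.5 h, and the difference from 1 h was not called for any of the 3.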

How the data were processed

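RNA of C57BL/6 mouse hearts was sequenced in 24 libraries, 8 groups of 3, and the 6 of sham and of 1 h of reperfusion are compared here. Per the file headers, the authors deposited counts of reads per gene for each library, as unique or multiply mapped reads with or without duplicates, and RPKM values beside them. Reads were mapped to mm10 (build per the submitters' processing notes). The annotation release, the aligner, the tool that marked duplicates and the counter with its strand option are details not given in the sources used here. Without a known strand setting, reads of overlapping or antisense genes cannot be told apart.

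Unique counts with duplicates kept were fitted with edgeR 4.0.16 (R 4.3.3) by quasi-likelihood, with TMM scaling, over all 24 libraries with 1 coefficient per group and 16 residual degrees of freedom, since 8 groups give a steadier estimate of the spread. Genes needed filterByExpr's minimum count of 10 and total of 15, which left 15128, and adjusted p-values are Benjamini-Hochberg over all of them. The standard error is the log2 fold change divided by the square root of F. DESeq2 1.42.0, limma 3.58.1 (voom), other scalings and filters, each library left out, and a lowess trend (span 0.3) over gene length taken out of every library were alternatives. The length trend was chosen after seeing the data. Where a group held 1 to 3 reads, the ratio of CPM is given with an exact 95% interval, which covers counting error only. The fit was tested on simulated counts with known changes, which held no length trend and no library that stood apart.

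Symbols and positions came from GENCODE vM21 (GRCm38) for 45143 of 46078 gene IDs (98.0%), and promoters from RefSeq (GRCm38.p6). IDs without a symbol held 0.0371% to 0.0408% of the counts. Differences between 1 h libraries by length used genes with a mean of at least 5 CPM and a pseudocount of 0.5 CPM. Total unique counts were 13407465 to 15870974 per library, and duplicates made up 44.7% to 54.4% of them. Named genes were, first, called genes with no overlap between groups and at least 5 CPM in the higher one, namely the 15 that rose most and the 10 that fell most. To these came up to 6 called and 3 uncalled members of each list, members that complete a role pair, and Atf3 and Fancd2. For the other times the rule took up to 6 called rises and 6 called falls. The members and lists were chosen with earlier results of these data known. Some genes that the rule took are not reported here.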

Additional observations from a re-analysis of the deposited data

Results flagged for a closer look

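The change against sham differed between 1 h and 1.5 h in 10 genes by a direct test of the 2 groups (edgeR's quasi-likelihood test, Benjamini-Hochberg adjustment), which share the sham libraries. On the log2 scale 1.5 h lay above 1 h by 3.11 for Selp, 2.52 for Ikzf4, 1.58 for Prg4 and 1.55 for Sbno2. The differences were smaller for Ell2 (1.30), Ripk1 (1.21), Grrp1 (1.02) and Rel (0.96). Gm23935 went the other way, at -1.75, and Vps37d had a CPM ratio of 1.5 h to 1 h of 0.0559. None of the 10 kept its call without 1 h replicate 1, the library that stood apart by gene length, where the adjusted p of Selp was 0.0535 and that of Rel 0.0772. The part of that library in these differences was not tested further.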

How the results depend on the processing

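The 1645 genes called between 1 h and sham numbered 1071 with the length trend removed and 559 to 1669 when 1 library was left out, the lowest without 1 h replicate 1. Without 1 h replicate 1, 533 of the 559 were also called with all libraries. Other settings gave 1233 (6 libraries only) to 2008 (DESeq2). Between 1 h and 0.5 h the count was 0, except 159 with no filter on low counts and 0 to 3 when 1 library was left out. Between 1.5 h and 1 h it was 10, and 70 by DESeq2, 2 by limma-voom, 2 with library totals only, 357 with no filter on low counts, 1 with the 6 libraries only and 0 to 20 when 1 library was left out. The cause of these differences was not tested. The leave-outs also rest on fewer libraries than the main fit. Of the 157 named genes called between 1 h and sham, 0 changed direction under any setting.

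Replicate numbers gave little sign of pairing: deviations of same-numbered libraries of 1 h and sham correlated at -0.003, 0.020 and 0.043. Between 1 h and 0.5 h the values were 0.119, 0.0784 and -0.0175, and between 1.5 h and 1 h 0.117, 0.0076 and -0.0842. So few libraries per group cannot show that pairing was absent. With a replicate block 1534 genes were called between 1 h and sham, 0 between 1 h and 0.5 h and 8 between 1.5 h and 1 h. Genes at or below a count of 3 in a library cannot be told from absent at this depth.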

Other observations

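Further lists showed small counts. In ribosome biogenesis and polyamine synthesis 3 of 18 genes rose and 0 fell, with a median of 0.17, and 1 rose without any 1 of the sham libraries, without 1 h replicate 1 and with the length trend removed. Platelet markers summed to 13.2 to 16.1 CPM in sham and 19 to 29.6 CPM at 1 h, and 1 of 5 rose. Atrial markers summed to 28.0 to 48.1 CPM and 70.0 to 96.6 CPM, with 2 of 5 called higher, Nppa and Stard10. Nppa, already given as a stretch gene, made up 59.9, 53.3 and 44.5 CPM of the sums of 96.6, 84.0 and 70.0 CPM at 1 h, and Myl4, Dkk3 and Nr2f2 were not called. B cell markers summed to 9.18 to 17.6 CPM and 15.8 to 23.0 CPM and mesothelial markers to 27.9 to 31.3 CPM and 24.9 to 42.6 CPM, with 1 called rise in each list. In the leave-outs the rises numbered 0 or 1 for platelets (0 without any 1 of the sham libraries or 1 h replicate 1), 1 or 2 for atrial markers (1 without sham replicate 3 or 1 h replicate 1), 0 to 2 for B cells and 0 or 1 for mesothelium. B cell rises were 0 without sham replicate 1 or 3 or 1 h replicate 1 and 2 without sham replicate 2, and mesothelial rises were 0 without sham replicate 1 or 2 or 1 h replicate 1 or 2. None of the 6 tested skeletal muscle markers was called, also in each leave-out, and the skeletal muscle genes Myh4 and Myod1 had 0 counts in all 6 libraries.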
